A study of Macaca mulatta with 45 samples.

Results

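Lysosomal enzymes and membrane proteins were followed as 33 genes in the fat of rhesus monkeys, over every probe that carries one of the 33 symbols on a human bead array. Of the 33 genes, 32 had a probe, with 53 probes among them, out of 20046 genes with a single symbol and 47323 probes in all. CD63 was not analysed here. A probe was kept where its detection p-value, which sets its signal against the array's background, was under 0.05 on at least 50% of the arrays of any group. By this rule 30 genes were kept, on 44 probes. CTSS, a cysteine protease, and NEU1, a sialidase, were detected on 0 of 45 arrays, and since the probes are human this says only that the probes gave no signal with rhesus RNA.

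The lysosome is an acidic compartment in which proteases, glycosidases, lipases and sphingolipid hydrolases break down material delivered by endocytosis and autophagy. Its membrane is lined by heavily glycosylated proteins such as LAMP1 and LAMP2, and the transcription factor TFEB is known to switch on many of its genes together. In fat, lysosomal acid lipase releases stored lipid inside adipocytes and macrophages, and macrophages as a cell type are rich in lysosomes.

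The animals were 24 adult male monkeys aged 7 to 13 years in 3 diet arms. The resveratrol arm, of 10 animals, ate a high-fat, high-sucrose diet with 42% of calories from fat and about 27% sucrose by weight, and took resveratrol at 80 mg a day in the first year and 480 mg a day in the second. The HFS arm, of 10 animals, ate the same diet with a placebo treat. The SD arm, of 4 animals, ate a standard diet with 13% of calories from fat and under 5% sucrose, also with the placebo. Visceral fat at 24 months gave 4 resveratrol, 4 HFS and 2 SD arrays. Subcutaneous fat gave 4 resveratrol, 5 HFS and 2 SD arrays at 24 months, and 10 resveratrol, 10 HFS and 4 SD arrays at baseline, before the diets began. All 11 animals with a subcutaneous array at 24 months also had one at baseline.

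Levels are log2 intensities after background correction and quantile normalisation over all 45 arrays. The probes bind genes with unequal strength, so a level is compared between arrays and never between genes. Each array detected between 14386 and 18673 probes, and arrays of the same group correlated at 0.926 to 0.986 over the 23767 probes kept. The subcutaneous arrays fall into 2 sets that differ in brightness and in the number of decimals written. The first set, A in the plots, holds all 11 arrays at 24 months and 8 at baseline, and the second, B in the plots, the other 16 baseline arrays. At baseline 3959 of 12130 genes differed between these sets, among them 5 of the 30 lysosomal genes, LIPA and CTSZ the furthest. Set membership was therefore a term in every fit over time and at baseline. All visceral arrays belong to a set of their own, so depot and array set cannot be told apart.

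Of 474 tests of a lysosomal gene over 16 comparisons, 20 passed at an adjusted p under 0.05, by limma with Benjamini-Hochberg adjustment over all genes of the fit. Within a depot, 4 of 354 tests passed in 12 comparisons, 3 of them for LAMP1 and 1 for CTSO. The CTSO probe was kept only through the group that reads higher in its call. Over all comparisons 13 genes passed at least once and 17 never did. Among those 17, the differences within a depot ran from -0.29 to 0.11 for SCARB2 and from -0.15 to 0.23 for HEXA, a subunit of beta-hexosaminidase, and reached 1.35 for CTSH, 1.22 for CTSK, a collagen-degrading protease, and 2.44 for GRN. The others were CTSB, CTSC, CTSD, CTSF, CTSL, LGMN, GLB1, GUSB, NPC1, NPC2, PSAP and MCOLN1.

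Signal limits some of these genes. Of the 30, 24 were detected on all 45 arrays with the probe used, while CTSO was detected on 1, HEXA on 10, TFEB on 18, CTSZ on 19, GAA on 20 and ASAH1 on 25. For 10 genes several probes were kept. The 2 GRN probes had the same sign in all 16 comparisons, whereas the 2 CTSB probes disagreed in sign in 10, the 4 CTSC probes in 9, the 4 LAMP2 probes in 8, the 2 GLB1 probes in 7, and the CTSH, PSAP and SMPD1 probes in 4 each. LGMN probes disagreed in 3 comparisons and CTSL probes in 2, and LAMP1 has 1 probe.

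**Figure D1:**
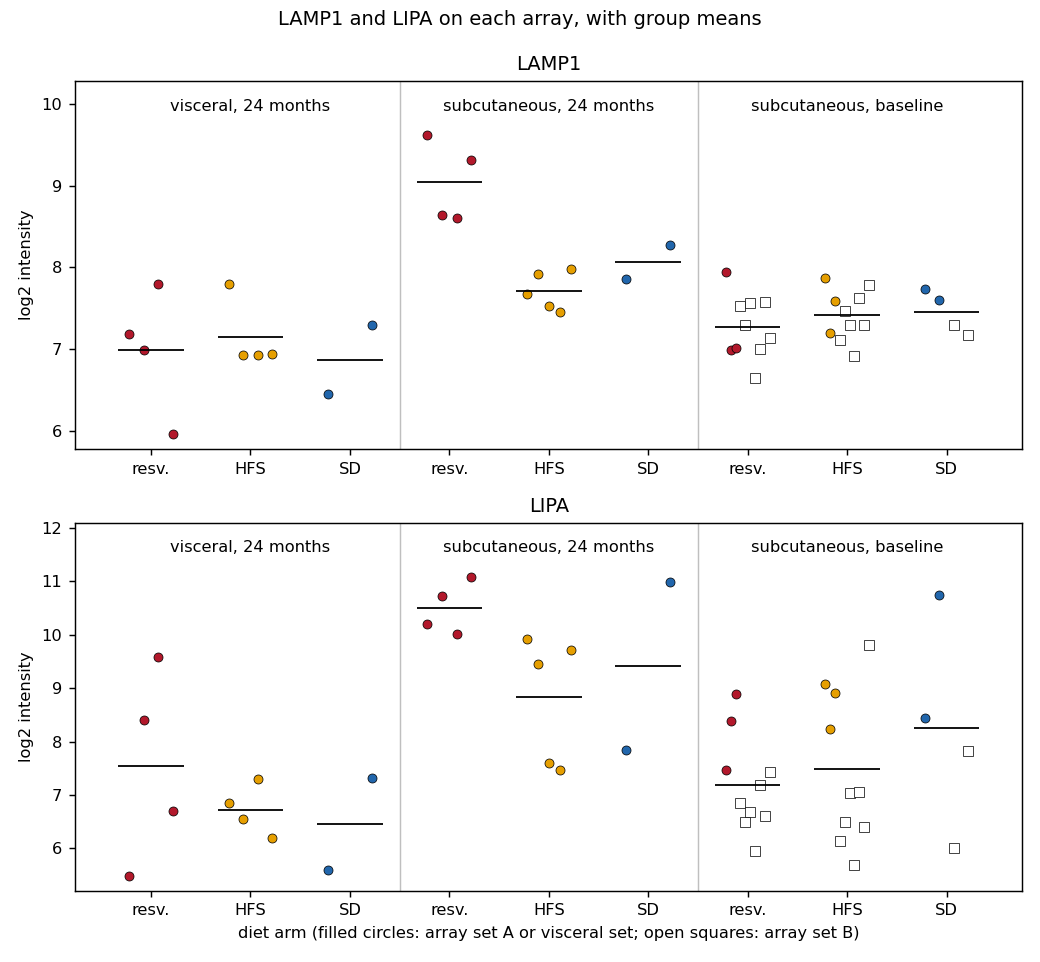
Log2 intensity of LAMP1 and LIPA on each of the 45 arrays (y axis), by depot, time and diet (x axis); black lines are group means, filled circles arrays of the visceral set and the first subcutaneous set, open squares arrays of the second. The 4 subcutaneous resveratrol arrays at 24 months lie between 8.60 and 9.61 for LAMP1, above the 5 HFS arrays, and LIPA spreads widely in most groups.

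The membrane glycoprotein LAMP1 was the gene that stood apart in subcutaneous fat at 24 months, where resveratrol on the high-fat, high-sucrose diet is compared with the diet alone. Its level was 9.61, 8.65, 8.60 and 9.31 on the resveratrol arrays, against 7.68, 7.92, 7.52, 7.46 and 7.98 on the HFS arrays. Every resveratrol array lay above every HFS array. The means were 9.04 ± 0.50 on resveratrol (SD, n = 4) and 7.71 ± 0.23 on HFS (SD, n = 5), a 2.51-fold rise (log2 difference 1.33 ± 0.24, SE, limma adjusted p = 0.000832). The 2 SD arrays, at 7.85 and 8.27, lay below the resveratrol arrays and reached above the HFS ones. Resveratrol exceeded SD by 0.98 ± 0.31 (SE, limma adjusted p = 0.158), and HFS minus SD was -0.35 ± 0.30 (adjusted p = 1), so neither passed.

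LAMP1 was 1 of 30 lysosomal genes to pass in this contrast, where 2.23% of the 12130 genes tested passed and 1.96% were higher. The median difference of the 30 was 0.04, beside -0.04 over all genes, and 18 of 30 lay above 0 beside 44.6% of all genes. In whole tissue, more cells of a type and more RNA per cell cannot be told apart. The 4 resveratrol arrays also detected more probes than the 5 HFS arrays, 17766.5 ± 759 against 16012 ± 272 (SD). With the number of detected probes as a covariate the LAMP1 difference was 1.14 and its limma adjusted p was 0.0727, which does not pass. The 19 measured macrophage markers of 21 listed averaged 9.21 on resveratrol arrays (range 9.03 to 9.37) and 9.04 on HFS arrays (8.69 to 9.39), and none of the 19 passed.

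None of the other membrane proteins passed. LAMP2, the second of the glycoproteins that coat the lysosome, differed by 0.31 ± 0.26 on the probe used (SE, adjusted p = 0.699), and its 4 probes ranged from 0.16 to 0.31. SCARB2, the membrane carrier that brings glucocerebrosidase to the lysosome, differed by 0.05 ± 0.14, and MCOLN1, a calcium release channel, by 0.17 ± 0.33. All 4 kept membrane genes lay above 0.

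Among the enzymes and carriers of lipids, LIPA and ASAH1 came next after LAMP1. LIPA, the lysosomal acid lipase that splits cholesteryl esters and triglycerides, read 10.19, 10.72, 10.00 and 11.08 on resveratrol, against 9.92, 9.46, 7.59, 7.46 and 9.72 on HFS. These groups did not overlap either, but the SD arrays, at 7.84 and 10.98, spanned both. Its difference of 1.67 ± 0.81 (SE) had a limma adjusted p of 0.366 and did not pass. LIPA and LAMP1 were the 2 of 30 lysosomal genes with every resveratrol array above every HFS array, beside 4.67% of all genes. ASAH1, the acid ceramidase, differed by 0.40 ± 0.13 (SE, adjusted p = 0.123), near the detection limit of its probe. The sphingomyelinase SMPD1, the saposin precursor PSAP and the cholesterol carriers NPC1 and NPC2 differed by -0.21 to 0.13.

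The proteases and glycosidases gave no call in this contrast. Of the 12 kept proteases, 8 lay above 0, from -0.50 for CTSA, a carboxypeptidase that protects other lysosomal enzymes, to 0.60 for CTSC, which trims dipeptides and activates granule proteases. All 6 kept glycosidases lay below 0 on the probe used, the furthest being GLA, alpha-galactosidase A, at -0.46 ± 0.25 (SE, limma adjusted p = 0.456). The second GLB1 probe gave 0.36, the opposite direction. TFEB and GRN, the gene of progranulin, differed by 0.06 ± 0.20 and 0.47 ± 0.65.

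**Figure D2:**
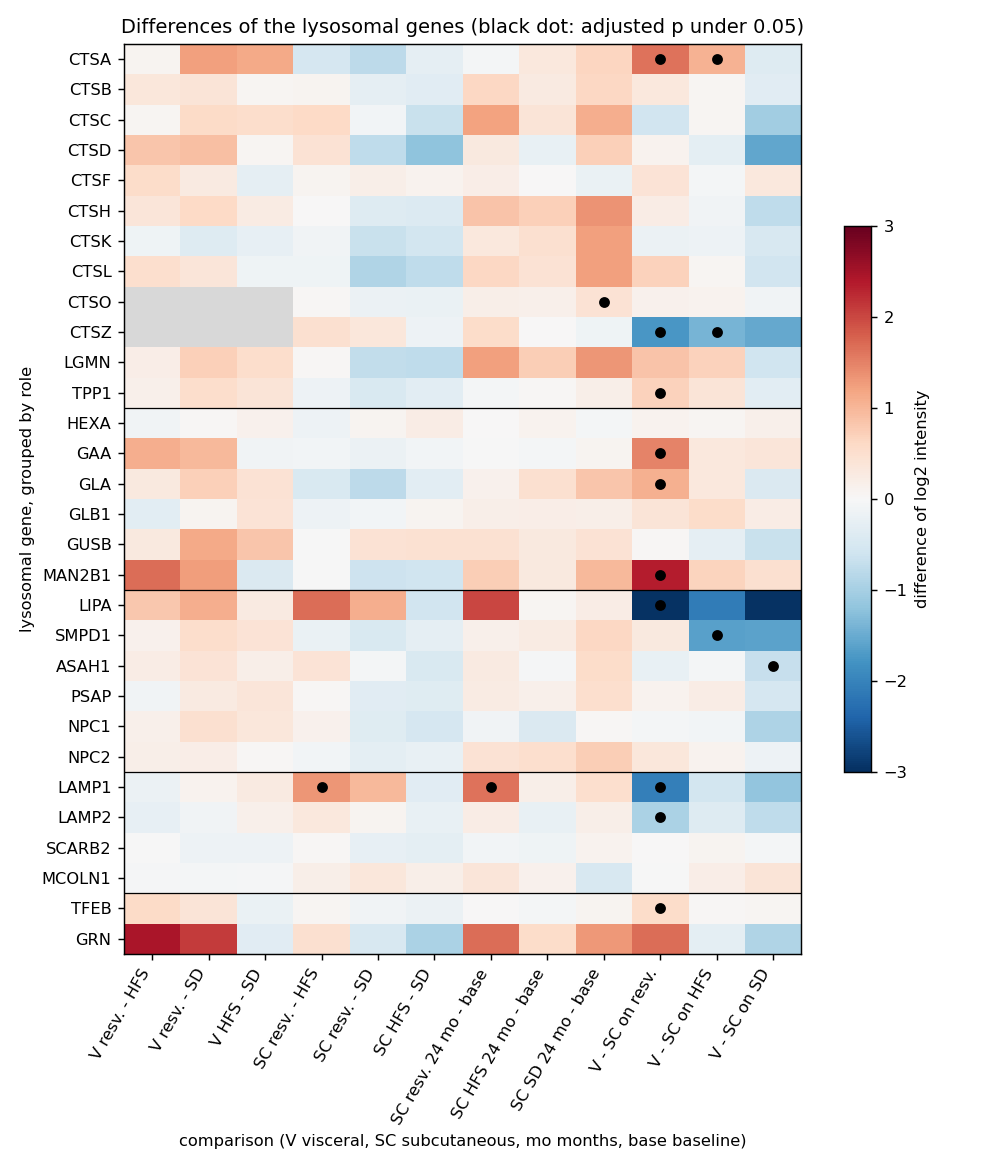
Log2 differences of the 30 kept lysosomal genes (rows, grouped by role) in 12 comparisons (columns); colour runs from -3 (blue) to 3 (red), a black dot marks an adjusted p under 0.05, and grey marks a gene not kept in that fit. In subcutaneous fat LAMP1 carries a dot for resveratrol minus HFS and for resveratrol over time, and none for resveratrol minus SD. It also carries one for the depot comparison on resveratrol, the column that holds the most dots.

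Other genes of the lysosome in the same contrast came from longer lists of its parts. None of 17 subunits and partners of the proton pump, none of 23 other hydrolases and none of 21 autophagy genes passed. Of 20 other membrane and sorting proteins 2 passed, both higher on resveratrol. OSTM1, the partner of a lysosomal chloride transporter, was detected on 4 of 4 resveratrol arrays and 0 of 5 HFS arrays. It was at least 1.58-fold higher, which sets its resveratrol mean against the lowest detected signal of each HFS array (limma adjusted p = 7.88e-05). Of the groups compared, its probe met the detection rule only in the one where it is high, so the call is no independent support. LAPTM4A, a small membrane protein of the compartment, was higher by 1.15 ± 0.27 (SE, adjusted p = 0.0132). Of 14 regulators 1 passed, LAMTOR4, a subunit of the complex that anchors mTORC1 to the lysosome, which differed by -0.998 ± 0.23 on the log2 scale (adjusted p = 0.013). COL3A1, a fibrillar collagen and 1 of 9 fibroblast markers, was higher by 2.11 ± 0.53 (adjusted p = 0.0254). The 9 fibroblast markers averaged 11.27 on resveratrol arrays (range 10.5 to 11.7) and 10.76 on HFS arrays (10.3 to 11.5), and their part in the LAMP1 result was not tested.

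Neither contrast with the standard diet gave a call among the lysosomal genes of subcutaneous fat at 24 months. For resveratrol minus SD 0.791% of all genes passed and 0 of 30 lysosomal ones. The smallest p belonged to LAMP1, followed by GLA at -0.78 ± 0.33 (SE, limma adjusted p = 0.379) and CTSL, a cysteine protease, at -0.90 ± 0.45 (adjusted p = 0.496). Leaving out 1 array moved GLA between -1.33 and -0.23 and CTSL between -1.66 and -0.14. OSTM1, detected on 0 of 2 SD arrays, was at least 1.63-fold higher (adjusted p = 0.00183), and COL3A1 was higher by 2.99 (adjusted p = 0.023). Here too the OSTM1 probe met the detection rule only on the resveratrol side. For HFS minus SD 0% of all genes passed limma's adjusted test, with 1.89% under an unadjusted 0.05. The lysosomal genes had a median of -0.31 here, with 5 of 30 above 0 beside 48.3% of all genes. Its direction turned on 1 SD array: the mean level of the 30 genes was 8.85 to 9.08 on the HFS arrays, against 8.79 and 9.79 on the SD arrays, and the median difference was -0.78 without SD replicate 1 and 0.16 without SD replicate 2. CTSD, the main aspartic protease of the lysosome, had the smallest p, at -1.20 ± 0.42 (SE, adjusted p = 1). Its levels were 6.03, 5.61, 6.27, 6.30 and 6.17 on HFS, against 6.12 and 8.44 on SD, so 1 SD array set the difference. It was -0.04 without SD replicate 2 and -2.36 without SD replicate 1 (adjusted p = 0.0123), which would pass. ASAH1 and CTSO followed, at -0.47 ± 0.17 and -0.21 ± 0.10.

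In subcutaneous fat of the resveratrol arm, 24 months set against baseline again gave LAMP1 alone among 30 lysosomal genes. In this comparison 5.25% of all genes passed and 3.15% were higher. LAMP1 averaged 9.04 ± 0.50 at 24 months (SD, n = 4) and 7.27 ± 0.38 at baseline (SD, n = 10), where the arrays ranged from 6.65 to 7.95, a 3.12-fold rise (log2 difference 1.64 ± 0.23, SE, limma adjusted p = 1.97e-05). On HFS alone LAMP1 differed by 0.17 ± 0.22 between the times (adjusted p = 0.752), and on SD by 0.51 ± 0.31 (adjusted p = 0.47). The change on resveratrol exceeded the change on HFS by 1.47 ± 0.28 (SE, limma adjusted p = 0.00216). That difference of changes passed for 2.34% of all genes and for 1 of 30 lysosomal genes. With detected probes as a covariate it was 1.30 (adjusted p = 0.072), and over the first array set alone 1.57 (adjusted p = 0.382), with fewer arrays. Between the array sets at baseline LAMP1 differed by 0.19 ± 0.15 (adjusted p = 0.353).

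The same animals measured at both times showed how even the change was. On resveratrol LAMP1 was higher at 24 months by 1.67, 1.66, 1.59 and 1.74 in the 4 animals. On HFS its change was -0.19, 0.73, -0.06, 0.35 and 0.36 in 5 animals, and on SD it was 0.11 and 0.67 in 2. Every animal on resveratrol changed more than every animal on HFS, and LAMP1 was the 1 of 30 lysosomal genes with changes that did not overlap, beside 3.41% of all genes. LIPA was higher at 24 months by 2.73, 2.33, 1.12 and 4.48 on resveratrol, against changes of 0.85, 1.22, -1.32, 1.32 and 2.66 on HFS and of -0.60 and 0.23 on SD. For LIPA the 2 diets overlapped. Changes in single animals carry no array set term. The baseline arrays behind the LIPA changes of 4.48 on resveratrol and 1.32 and 2.66 on HFS lie in the second set. LIPA read 1.84 higher in the first set than in the second at baseline, so these changes include a set difference. GRN was higher in 4 of 4 animals on resveratrol, by 0.83 to 2.84, and in 2 of 5 on HFS, where changes ran from -1.51 to 2.28.

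**Figure D3:**
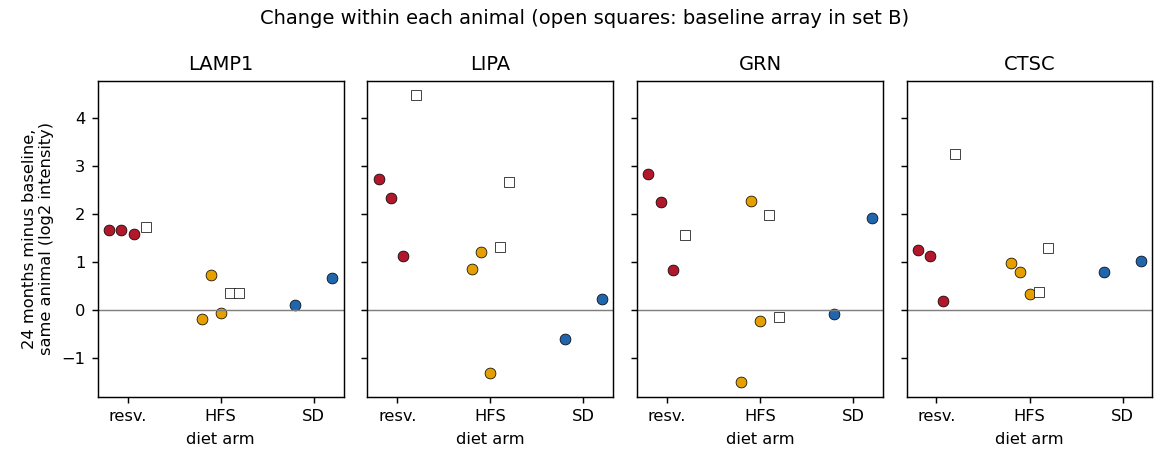
Change in log2 intensity from baseline to 24 months in single animals (y axis) for LAMP1, LIPA, GRN and CTSC, by diet (x axis); each point is 1 animal, and open squares are animals whose baseline array lies in the second set. The 4 resveratrol points of LAMP1 lie between 1.59 and 1.74, above all 5 HFS points, while the points of the other genes overlap between diets.

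Beyond LAMP1, no lysosomal gene of the resveratrol arm passed over time in the main fit, which takes arrays as unpaired. With animal as a random block 3 did. Over all other settings, unpaired ones among them, the count with LAMP1 ran from 1 to 5. Of the 30, 25 lay above 0, beside 48% of all genes, with a median of 0.28. LIPA differed by 2.01 ± 0.65 (SE, limma adjusted p = 0.0656), but it also differed by 1.84 ± 0.43 between the array sets at baseline (adjusted p = 0.00135). CTSC differed by 1.20 ± 0.44 (adjusted p = 0.107), GRN by 1.67 ± 0.64 (adjusted p = 0.128) and LGMN, an asparagine-specific protease, by 1.24 ± 0.51 (adjusted p = 0.156). The same animals were sampled at both times, and with animal as a random block LIPA (2.06, adjusted p = 0.0171), CTSC (1.22, adjusted p = 0.0396) and GRN (1.72, adjusted p = 0.0484) passed beside LAMP1. LIPA also passed with the replicate number as a block (adjusted p = 0.045) and in 5 other settings, and over 19 settings its adjusted p ran from 0.00222 to 0.186. Macrophage markers lay higher in the same comparison, with a median of 1.21 and 11 of 19 higher at an unadjusted 0.05, beside 10.5% of all genes. CD163, a scavenger receptor of macrophages, differed by 1.61 ± 0.52 (adjusted p = 0.0648) and CD68, itself a lysosomal glycoprotein of macrophages, by 1.45 ± 0.61 (adjusted p = 0.161). LYVE1, a marker of lymphatic vessels and some macrophages, rose by 1.95 (adjusted p = 0.00985). The part of macrophages in these differences was not tested.

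Wider lysosomal genes that passed over time on resveratrol were OSTM1, detected on 0 of 10 baseline arrays and at least 1.54-fold higher (limma adjusted p = 2.59e-06), LAPTM4A, up by 0.48 (adjusted p = 0.0449), and the proton pump subunit ATP6V0A1, up by 1.17 ± 0.32 (SE, adjusted p = 0.0239). ATG14, which helps start autophagosomes, was detected on 3 of 4 arrays at 24 months and 0 of 10 at baseline, too near background for a size (adjusted p = 0.00282). RPTOR, the scaffold of mTORC1, was detected on 0 of 4 arrays at 24 months and 5 of 10 at baseline, and was at least 1.10-fold lower (adjusted p = 0.0108). Within this comparison the probes of OSTM1 and ATG14 met the detection rule only at 24 months, and that of RPTOR only at baseline. Each was thus kept here through the side where it reads higher, so these calls are no independent support. COL3A1 rose by 2.16 (adjusted p = 0.00575) and LUM, a small proteoglycan of collagen fibres, by 1.61 (adjusted p = 0.0239). In the difference of changes, LAPTM4A at 1.16 (adjusted p = 0.000108), COL3A1 at 2.44 (adjusted p = 0.0163) and LUM at 2.05 (adjusted p = 0.027) passed upward, and LAMTOR4 at -1.03 (adjusted p = 0.0266) downward. OSTM1 (adjusted p = 2.36e-05) and ATG14 (adjusted p = 0.0423) also passed upward, with no size given since each was detected on 0 of 10 resveratrol baseline arrays.

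Over time on HFS, 4.48% of all genes passed and 0 of 30 lysosomal genes. NPC2, a soluble cholesterol carrier, had the smallest p at 0.51 ± 0.22 (SE, limma adjusted p = 0.204), then CTSO at 0.16 ± 0.07 (adjusted p = 0.22) and GLA at 0.49 ± 0.23 (adjusted p = 0.248). Of the 30 genes 23 lay above 0, beside 50.7% of all genes, and the macrophage markers had a median of 0.73. In the wider lists RRAGB, a GTPase that recruits mTORC1, was lower by 0.77 on the log2 scale (-0.77, adjusted p = 0.0293), and FLCN, a regulator of such GTPases, passed upward near background, detected on 2 of 5 arrays at 24 months and 0 of 10 at baseline (adjusted p = 0.0296). LAPTM4A (-0.68, adjusted p = 0.00335) and LAMTOR3 (-0.75, adjusted p = 0.00968) passed downward as fitted differences with the array set as a term, which their means over all arrays do not show. LAPTM4A averaged 8.61 at 24 months, against 8.69 over all 10 baseline arrays and 9.14 over the 3 of the same set. LAMTOR3 averaged 7.88 at 24 months, against 7.87 over all 10 and 8.54 over those 3. Of 7 erythroid markers 2 passed, HBD at -3.22 (adjusted p = 0.00937) and AHSP at -1.65 (adjusted p = 0.0218).

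Over time on SD, 1.23% of all genes passed and 1 of 30 lysosomal genes, the cysteine protease CTSO. Its level was 4.99 and 4.60 at 24 months, against 4.38, 4.36, 4.50 and 4.36 at baseline (log2 difference 0.44 ± 0.10, SE, limma adjusted p = 0.0232). The probe was detected on 1 of 2 arrays at 24 months and on 0 of 4 at baseline, so its levels are barely above background and no fold is given. No other array of the 45 detected it. The probe was therefore kept only through the group where it reads higher, and the call is no support for a change. The call was lost without baseline replicate 1 (adjusted p = 0.0609) or replicate 2 (adjusted p = 0.0592), and with the replicate number as a block (adjusted p = 0.0825). ASAH1 came next at 0.55 ± 0.18 (adjusted p = 0.117), and 26 of 30 genes lay above 0, beside 51.8% of all genes. Macrophage markers had a median of 0.87 here.

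In visceral fat at 24 months the lysosomal genes furthest apart between resveratrol and HFS were GRN, MAN2B1 and GAA, and none passed. In this contrast 0% of all genes passed limma's adjusted test, although 23.7% had an unadjusted p under 0.05. Of the 28 lysosomal genes kept in the visceral fit, which leaves out CTSO and CTSZ as well, 4 were higher and 0 lower at an unadjusted 0.05, beside 12.5% of all genes that were higher and 11.3% that were lower. The 28 had a median of 0.19, beside -0.08 over all genes, and 20 of 28 lay above 0, beside 42.1% of all genes.

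GRN encodes progranulin, a secreted glycoprotein that is cut into granulins inside the lysosome. Its level was 9.76, 12.22, 12.97 and 11.25 on resveratrol, against 9.57, 7.95, 9.76 and 9.17 on HFS and 10.26 and 8.64 on SD. The lowest resveratrol array stood level with the highest HFS array. The resveratrol mean was 11.55 ± 1.39 and the HFS mean 9.11 ± 0.81 (SD, n = 4 each), a difference of 2.44 ± 0.65 (SE, limma adjusted p = 0.102). The second GRN probe read 8.33, 10.59, 11.31 and 9.71 on resveratrol, against 8.79, 6.79, 8.50 and 6.96 on HFS, a difference of 2.22 in the same direction.

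Both glycosidases near GRN degrade sugars inside the lysosome. MAN2B1, the alpha-mannosidase that trims glycoprotein glycans, read 8.32, 9.59, 11.04 and 8.97 on resveratrol, against 7.74, 7.25, 8.43 and 7.77 on HFS (difference 1.68 ± 0.51, SE, limma adjusted p = 0.109). GAA, the glucosidase that degrades glycogen, read 5.79, 6.23, 6.88 and 6.19 on resveratrol, against 5.02, 4.82, 6.13 and 4.78 on HFS (difference 1.08 ± 0.33, SE, adjusted p = 0.109), and its probe was detected on 4 resveratrol arrays and 1 HFS array. TFEB differed by 0.57 ± 0.25 (adjusted p = 0.201). For each of MAN2B1 and GAA, 3 of the 4 resveratrol arrays lay above all 4 HFS arrays. Without resveratrol replicate 1, the lowest of the 4 for GRN, MAN2B1 and GAA, 4 lysosomal genes passed in place of 0: CTSL, GAA, GRN (difference 3.04, adjusted p = 0.0141) and MAN2B1. With the fit run over all 45 arrays 3 passed, GRN (adjusted p = 0.0335), GAA (adjusted p = 0.0146) and SMPD1. That fit also picks each gene's probe anew. For SMPD1 it took the probe that differs by 1.71, in place of the one that differs by 0.14. With arrays weighted by their quality 6 genes passed. The share of all genes passing in these settings is not given here, so the counts are not read as a trait of the lysosomal genes. LAMP1 read 7.19, 6.99, 7.80 and 5.96 on resveratrol, against 7.80, 6.93, 6.93 and 6.94 on HFS, a difference of -0.17 ± 0.39 (adjusted p = 0.806).

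SMPD1, the acid sphingomyelinase, gave a different answer on each of its probes. On the brighter visceral probe the difference was 0.14 ± 0.31 (SE, adjusted p = 0.799). The other probe read 7.87, 7.77, 8.45 and 7.80 on resveratrol, against 6.34, 5.22, 6.74 and 6.76 on HFS, which do not overlap, a difference of 1.71. In this contrast 6.79% of all genes were higher without overlap. The 19 macrophage markers averaged 9.30 on resveratrol arrays (range 8.23 to 10.2) and 9.19 on HFS arrays (8.92 to 9.37), with CD68 0.51 and CD163 0.19 higher. The 9 smooth muscle and pericyte markers averaged 8.76 on resveratrol arrays (range 8.10 to 9.45) and 7.95 on HFS arrays (7.71 to 8.28). The resveratrol arrays detected 16162.8 ± 796 probes and the HFS arrays 15173.2 ± 166 (SD), and with that number as a covariate the GRN difference was 1.38 (adjusted p = 0.769). The part of these markers in the differences was not tested. ADIPOQ, the adipocyte hormone adiponectin, differed by -0.17, on a probe too near background to follow adipocytes. It was detected on 2 of 4 visceral HFS arrays, at a mean of 5.07. PLIN1, a lipid droplet coat protein, differed by -0.45. None of these passed.

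**Figure D4:**
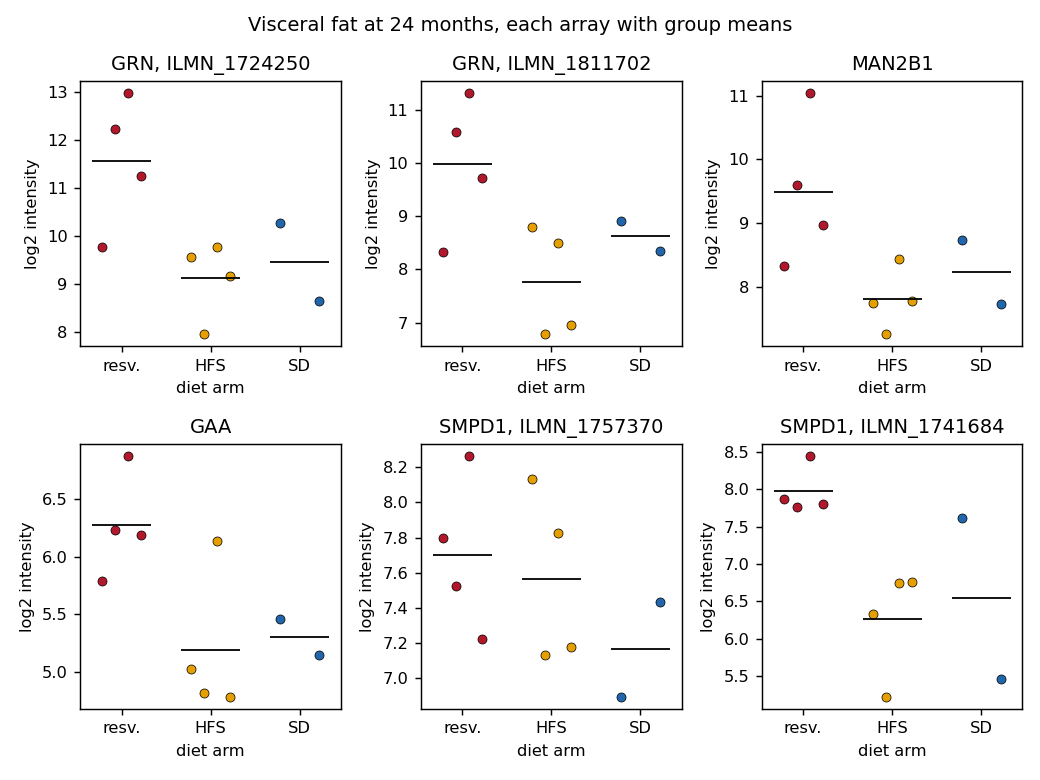
Log2 intensity on each of the 10 visceral arrays (y axis), by diet (x axis), for both GRN probes, MAN2B1, GAA and both SMPD1 probes; each point is 1 array and black lines are group means. The GRN probes move alike, and the SMPD1 probes do not: 1 separates all 4 resveratrol arrays from all 4 HFS arrays and the other does not.

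With the standard diet as the comparator, CTSA led both visceral contrasts without passing. It read 10.44, 11.24, 11.84 and 10.36 on resveratrol and 10.97, 10.57, 11.20 and 10.83 on HFS, against 9.24 and 10.26 on SD. Every array on either high-fat diet lay above both SD arrays, which with 2 SD arrays held for 6.3% of all genes on resveratrol and 6.49% on HFS. For resveratrol minus SD the difference was 1.22 ± 0.41 (SE, limma adjusted p = 0.468), where 0.00858% of all genes passed and 0 of 28 lysosomal ones. GRN followed at 2.10 ± 0.80 (adjusted p = 0.47), then ASAH1 at 0.40 ± 0.16 (adjusted p = 0.482), which was not well above background on either SD array. In that contrast 24 of 28 lysosomal genes lay above 0, beside 45.2% of all genes. For HFS minus SD the CTSA difference was 1.14 ± 0.41 (adjusted p = 0.901), where 0.00858% of all genes and 0 of 28 lysosomal genes passed. PSAP at 0.37 ± 0.20 and GUSB, beta-glucuronidase, at 0.84 ± 0.53 followed. Leaving out 1 array moved these between 0.63 and 1.66 for CTSA, 0.07 and 0.67 for PSAP and 0.48 and 1.13 for GUSB, and for resveratrol minus SD between 0.71 and 1.73 for CTSA and 1.29 and 2.91 for GRN. The 10 measured mesothelial markers had medians of -1.17 for resveratrol minus SD and -1.37 for HFS minus SD, and their part was not tested.

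Between depots at 24 months, each comparison carries the array set with it. On resveratrol 10 of 30 lysosomal genes differed between visceral and subcutaneous fat, where 35.8% of all genes did, 20.1% higher and 15.8% lower. Higher in visceral fat were GAA by 1.50 ± 0.28 (SE, limma adjusted p = 4.75e-05), whose probe was detected on 4 of 4 visceral and 1 of 4 subcutaneous arrays, CTSA by 1.62 ± 0.34 (adjusted p = 0.000297), MAN2B1 by 2.36 ± 0.55 (adjusted p = 0.000807), GLA by 1.07 ± 0.28 (adjusted p = 0.00248), TPP1, a tripeptidyl peptidase, by 0.69 ± 0.25 (adjusted p = 0.0303) and TFEB by 0.55 ± 0.22 (adjusted p = 0.0489), detected on 4 of 4 visceral and 2 of 4 subcutaneous arrays. Sizes for GAA and TFEB are therefore limited by background in subcutaneous fat. The GLA call was lost with background correction and median scaling (adjusted p = 0.083). The TPP1 call was lost without subcutaneous replicate 3 or 4 or visceral replicate 2 or 3 (adjusted p = 0.0525 to 0.158), and the TFEB call without 7 of the 8 arrays in turn (adjusted p = 0.0536 to 0.118).

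The 4 genes lower in visceral fat on resveratrol included both LAMP glycoproteins. LAMP1 was 4.16-fold lower (-2.06 ± 0.29, SE, limma adjusted p = 7.66e-07), with visceral levels of 5.96 to 7.80 against subcutaneous levels of 8.60 to 9.61. LAMP2 was lower by 0.94 on the log2 scale (-0.94 ± 0.26, adjusted p = 0.00401), and its 4 probes ran from -1.03 to -0.17. LIPA read 5.49, 8.40, 9.58 and 6.69 in visceral fat, below each of the 4 subcutaneous arrays (-2.96 ± 0.86, adjusted p = 0.00652). CTSZ, a carboxypeptidase, was not well above background on any visceral array, so it was at least 2.50-fold lower (adjusted p = 0.00303). Its probe met the detection rule in no visceral group and was kept through subcutaneous groups, where it reads higher. The CTSZ call is thus no independent support. In the wider lists 4 of 17 proton pump genes were higher and 2 lower, 5 of 23 other hydrolases higher and 2 lower, 4 of 20 other membrane and sorting proteins higher and 4 lower, 5 of 22 autophagy genes higher and 3 lower, and 4 of 15 regulators higher and 3 lower. Of the markers, 6 of 10 mesothelial genes were higher and 4 of 9 fibroblast genes and 2 of 19 macrophage genes lower.

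On HFS 3 of 30 lysosomal genes differed between the depots, where 18.7% of all genes did. CTSA was higher in visceral fat by 1.05 ± 0.33 (SE, limma adjusted p = 0.0204), and CTSZ was at least 1.72-fold lower (adjusted p = 0.0218). Here too the CTSZ probe was kept only through subcutaneous groups, so its call is no independent support. Each of these calls was lost without certain single arrays, CTSA without visceral replicate 1 or 3 (adjusted p = 0.0504 and 0.068), and CTSZ without subcutaneous replicate 1 or 5 or visceral replicate 3 (adjusted p = 0.076, 0.0619 and 0.0504). SMPD1 read 6.34, 5.22, 6.74 and 6.76 in visceral fat, against 7.28, 8.01, 7.998, 8.48 and 7.66 in subcutaneous fat (-1.62 ± 0.38, adjusted p = 0.00205). Its other probe gave 0.72, the opposite direction, and the mean of both probes gave -0.45 (adjusted p = 0.29), so the call rests on 1 probe. In the wider lists 1 proton pump gene was higher and 1 lower, 1 other hydrolase higher and 2 lower, 2 membrane and sorting proteins higher, 2 autophagy genes higher and 3 lower, and 3 regulators higher. Of the markers, 5 mesothelial genes were higher and 3 fibroblast genes and 1 macrophage gene lower. LAMP1 differed by -0.56 ± 0.28 on HFS (adjusted p = 0.158) and by -1.19 ± 0.41 on SD (adjusted p = 0.121).

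On SD 2.39% of all genes and 1 of 30 lysosomal genes differed between depots. This was ASAH1, at 4.74 and 4.71 in visceral fat, not well above background, against 5.17 and 5.67 in subcutaneous fat, at least 1.36-fold lower (limma adjusted p = 0.0395). Between these groups the ASAH1 probe met the detection rule only in subcutaneous fat, so the call is no independent support. It rests on 2 arrays a side. It was lost without visceral replicate 1 (adjusted p = 0.0968) or 2 (adjusted p = 0.142) and without subcutaneous replicate 2 (adjusted p = 0.441). In the wider lysosomal lists 1 autophagy gene was higher and none lower, and 6 of 10 mesothelial markers were higher.

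The difference between resveratrol and HFS was itself compared between depots, which passed for 2.7% of all genes and for 2 of 30 lysosomal genes. For LAMP1 the visceral difference was smaller by 1.50 on the log2 scale (-1.50 ± 0.40, SE, limma adjusted p = 0.0343). SMPD1 went the other way, by 1.91 ± 0.55 (adjusted p = 0.0494), and its other probe gave 0.37. Of the wider lysosomal genes LAPTM4A passed at -1.50 ± 0.37 (adjusted p = 0.0222), OSTM1 passed downward (adjusted p = 0.00717) and ABCB9, a peptide transporter, upward (adjusted p = 0.025). No size is given for these last genes, since OSTM1 was detected on 0 of 4 visceral resveratrol arrays and 0 of 5 subcutaneous HFS arrays, and ABCB9 on 1 of 4 subcutaneous resveratrol arrays. Of the marker genes KDR of endothelium passed downward (adjusted p = 0.0109), and CLDN5 of endothelium (adjusted p = 0.0341) and DES of muscle (adjusted p = 0.0204) upward. KDR was detected on 3 of 4 visceral HFS arrays and 0 of 5 subcutaneous HFS arrays. DES was detected on 1 of 4 subcutaneous resveratrol arrays. Both calls thus lean on values near background. LAMP1 lost this call in 10 of 30 other settings, 8 of which left out a single array (adjusted p up to 0.107), and SMPD1 in 19 of 30.

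At baseline, before any diet, no lysosomal gene passed between the arms. For the resveratrol arm minus the HFS arm 0% of all genes passed limma's adjusted test, and 3.12% had an unadjusted p under 0.05. LAMP1 differed by -0.15 ± 0.16 (SE, adjusted p = 1), and 4 of 30 lysosomal genes lay above 0, beside 46.9% of all genes. The smallest p-values were those of MAN2B1 at -0.48 ± 0.31, GRN at -0.63 ± 0.43 and CTSB, a cysteine protease, at -0.28 ± 0.21, whose other probe gave 0.41. For the HFS arm minus the SD arm 0.00824% of all genes passed and 0 of 30 lysosomal ones. GUSB at 0.59 ± 0.28, MCOLN1 at -0.46 ± 0.28 and CTSO at 0.08 ± 0.07 had the smallest p.

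The lysosomal genes varied unequally among arrays of one group. The fit behind these SDs has no array set term, and each baseline group holds arrays of both sets. At baseline LIPA differed between the sets by 1.84 and MAN2B1 by -0.81 (first set minus second), so their SDs include a set difference. The within-group SD of LIPA was 1.29, at percentile 99.4 of all genes, followed by GRN at 1.06 (98.4), MAN2B1 at 0.81 (95.6) and LGMN at 0.79 (95.1). LAMP1 had an SD of 0.41 (63.6), beside a median of 0.34 over all genes. SCARB2 at 0.19, ASAH1 at 0.18 and CTSO at 0.13 varied least, the last 2 on probes near background.

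How far variation between baseline arrays followed macrophage marker RNA was examined over the 24 of them, after subtracting each array set's mean. Marker RNA in whole tissue is not a count of cells, and the markers include CD68, itself a lysosomal glycoprotein. The mean of the 19 measured macrophage markers correlated with 9 of 30 lysosomal genes at an adjusted p under 0.05 by permutation, all positively, beside 1.94% of the 12111 genes other than the markers, 1.65% positively. NPC2 had the highest correlation, with a Pearson r of 0.836 and a Spearman rho of 0.833 (adjusted permutation p = 0.0021 and 0.0029). The unadjusted p of 1e-05 is the smallest that the permutations can give. Its r was 0.774 without the 2 arrays farthest from the marker median, 0.707 within the first array set and 0.861 within the second.

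Of the other 8 genes, 5 were proteases. CTSB had an r of 0.782, CTSH of 0.755, CTSC of 0.698, CTSL of 0.664 and LGMN of 0.653. The glycosidases MAN2B1 and GLA had an r of 0.736 and 0.715, and GRN had one of 0.695. The adjusted permutation p of these 8 lay between 0.0021 and 0.04. All 9 kept a positive sign within both array sets and without the 2 farthest arrays, and 7 of the 9 also passed on Spearman's rho, GLA (rho 0.603, adjusted p = 0.11) and CTSL (rho 0.574, adjusted p = 0.17) being the exceptions.

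LAMP1 did not pass. Its r was 0.373 (adjusted permutation p = 0.38), and LIPA had an r of 0.582 (adjusted permutation p = 0.084). SMPD1 had the lowest r, -0.145, and the median over the 30 was 0.362, beside 0.00428 over all genes. With the mean of the measured adipocyte markers 0 of 30 lysosomal genes passed, as did 0% of all genes, and r ran from -0.365 to 0.432 with a smallest unadjusted p of 0.041. With CD163 alone as the marker 0 of 30 passed, where 0.355% of all genes did, and r ran from -0.0789 to 0.605.

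**Figure D5:**
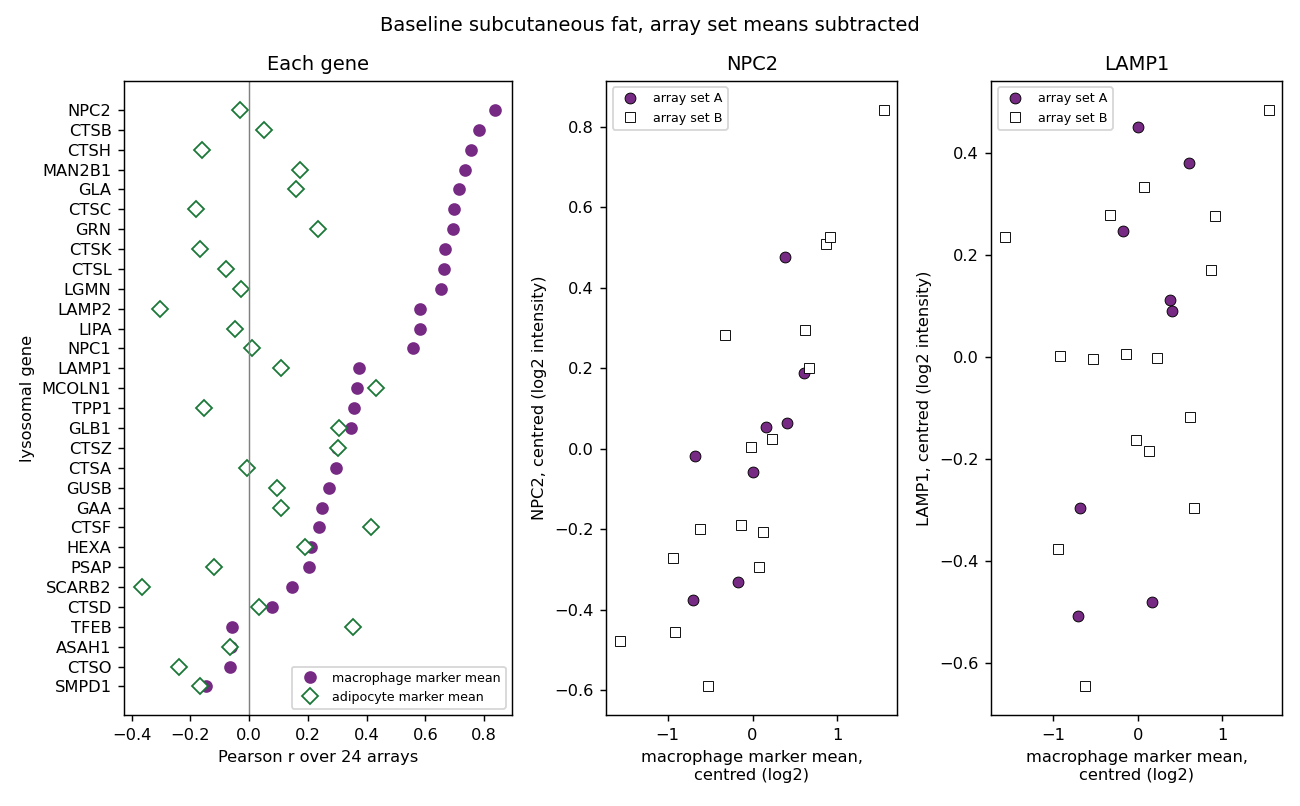
Pearson correlation of each lysosomal gene with the macrophage and adipocyte marker means over the 24 baseline arrays (left), and the marker mean against NPC2 and LAMP1 on each array (right) with array set means subtracted. NPC2 has the highest macrophage r, 0.836, LAMP1 lies at 0.373, and the adipocyte values scatter around 0.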

How the data were processed

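Total RNA from fat was hybridised to Illumina human bead arrays, per the labels' protocols. The signal intensities and detection p-values of each probe were exported with GenomeStudio 1.9.0, per the submitters' processing notes, and deposited without normalisation; the labels and headers do not say whether background was subtracted or how the p-values were made. The authors' deposited value table holds a score, which equals each array's log intensity minus its mean, divided by its standard deviation, to within 5e-10. Of 47323 probes, 92 empty on the subcutaneous arrays were left out; 30113 of the other 47231 carry 1 symbol, 8 several and 17110 none, and only the first were named.

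Intensities were normalised over all 45 arrays with neqc (limma 3.58.1, R 4.3.3, offset 16). Each gene was tested on its probe of highest mean by lmFit and eBayes with a trend, with Benjamini-Hochberg adjustment over all genes of the fit. The visceral fit used 10 arrays (11657 genes), the subcutaneous fits 35 (12130 genes) and the depot fits 45 (12917 genes). Baseline correlations used 100000 two-sided permutations within array sets, adjusted over all genes rather than over the lysosomal genes as first planned. Scripts were tested on simulated data. Arrays of a group come from different animals by their column names, and their number limits the precision.

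In each comparison every lysosomal gene that passed is named, or the 3 with the smallest p where none did, and from other lists at most 4 that passed; in the 3 comparisons of depots the lysosomal lists and the mesothelial, fibroblast and macrophage markers are given as counts instead, a departure from the rule as first written. The members and lists were chosen with earlier results of these data known. Alternatives changed the normalisation, filter, probe choice, arrays fitted, pairing, array set, array weights and detected probes as a covariate, and left out each array in turn in groups of 2 to 5. Of the 11 pairs of arrays over time with a shared replicate number, 9 are of the same animal by their column names, which give 25 names for 24 animals. The extra name, on a visceral resveratrol array, is that of a baseline resveratrol array with a digit added. Where animal was a block over all arrays, these names were taken as different animals.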

Additional observations from a re-analysis of the deposited data

Results flagged for a closer look

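Each lysosomal gene was checked in each group of 4 to 10 arrays, 210 combinations of gene and group. In 13 of these 1 array lay far from the rest of its group, where chance gives about 1 in 20. The count is near that rate, so the 13 are listed and not read as a result. Visceral HFS replicate 1 was the highest of its 4 arrays for LAMP1 at 7.80 (nearest 6.94), HEXA at 5.81 (nearest 4.76), NPC1 at 9.49 (nearest 8.99) and LGMN at 13.4 (nearest 12.3). Baseline subcutaneous HFS replicate 10 was the highest of 10 for the proteases CTSC at 11.2 (nearest 9.73), CTSL at 13.4 (nearest 12.1) and LGMN at 13.2 (nearest 11.4). Of the other baseline arrays, HFS replicate 1 was high for GLB1 at 10.3 (nearest 9.65), HFS replicate 5 low for SMPD1 at 6.81 (nearest 7.38) and resveratrol replicate 9 low for NPC1 at 8.22 (nearest 8.89). At 24 months subcutaneous resveratrol replicate 4 was low for GLA at 8.53 (nearest 9.14), subcutaneous HFS replicate 2 low for CTSO at 4.38 (nearest 4.61), and visceral resveratrol replicate 3 high for SMPD1 at 8.45 (nearest 7.87).

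A tested difference between groups was found 3 times. The change of LAMP1 over 24 months was larger on resveratrol than on HFS by 1.47 (limma adjusted p = 0.00216). The difference between resveratrol and HFS was smaller in visceral than in subcutaneous fat for LAMP1, by -1.50 (adjusted p = 0.0343), and larger for SMPD1, by 1.91 (adjusted p = 0.0494). The other SMPD1 probe gave 0.37. This depot difference lost its call in 10 of 30 other settings for LAMP1 and in 19 of 30 for SMPD1.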

How the results depend on the processing

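Of 333 alternative counts of passing lysosomal genes, 66 moved by more than 1.5 times, and of 968 alternative values of named genes 871 kept direction and side of the threshold, 73 lost a call, 22 gained one and 2 reversed; unless a setting itself uses fewer arrays or genes, the cause was not tested. Counts in this section are given without the share of all genes in the same setting. For visceral resveratrol minus HFS the count of 0 was 3 with all 45 arrays, a fit that takes SMPD1 on its other probe, and 6 with array weights. For subcutaneous resveratrol minus HFS at 24 months the count of 1 was 2 with the deposited scores, with background correction and median scaling, with no filter and with array weights, and 0 with detected probes as a covariate; the count of 0 for resveratrol minus SD was 1 with the deposited scores. Over time on resveratrol the count of 1 was 2 with quantile normalisation, no filter or the replicate number as a block, 3 with the deposited scores, median scaling or only the arrays compared, 4 with animal as a random block and 5 without the array set term. Over time on SD the count of 1 was 0 with median scaling, detection on all arrays of a group, only the arrays compared, the replicate block, no set term or no second array set. The difference of changes went from 1 gene to 4 with median scaling, 2 with no filter, and 0 without the second array set or with detected probes as a covariate. Between depots the HFS count of 3 was 5 with array weights or the animal block, and the SD count of 1 was 0 with the deposited scores, median scaling, no filter, only the arrays compared or array weights. The depot difference in 2 genes was 1 with quantile normalisation, the deposited scores, median scaling, no filter, detection on all arrays of a group, the mean of probes or only the arrays compared, 6 with array weights and 0 without the second array set. With CD163 alone the 9 correlated genes became 0. SMPD1 between depots on HFS reversed to 0.72 (limma adjusted p = 0.0535) with only the arrays compared, which selects its other probe, and CTSB at baseline reversed to 0.0626 with the mean of its probes.

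Leaving out 1 array at a time gave 0 to 4 genes for visceral resveratrol minus HFS, 0 to 1 for subcutaneous HFS minus SD and for resveratrol minus SD at 24 months, where CTSD passed without SD replicate 1, and 0 to 2 over time on SD. It gave 1 to 4 between depots on HFS, 8 to 11 on resveratrol, 0 to 2 on SD and 0 to 3 for the depot difference. The replicate block and pairing were checked on the residuals of arrays that share a number. Over time the correlation of 11 pairs ran from -0.331 to 0.476, above 0.1 in 8, between depots from -0.239 to 0.455 in 10 pairs, of which 3 are of 1 animal, and between diets from -0.457 to 0.262 in 16 pairs, of which 0 are.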
